A study of Mus musculus with 18 samples.

Results

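To ask which messages were carried by many ribosomes and which by few in mouse embryonic stem cells (ESCs) without Dgcr8, the high polysome fraction was compared with the low polysome fraction of the same cells. The comparison used 6 of the 18 libraries of the series, 3 of Dgcr8 knockout (KO) high polysomes and 3 of Dgcr8 KO low polysomes, taken as pairs by their replicate number. It was made over 12851 of the 51467 genes in the count table, which are those with at least 3 CPM (counts scaled to a fixed library size) in 3 or more libraries. All 6 libraries came from 1 previously made KO ESC line, so no value was checked in another KO clone. The wild type (WT) reference libraries came from V6.5 ESCs, processed in the same way. Cells of both genotypes were grown in Knockout DMEM with serum, LIF and the inhibitor mix called 2i, received cycloheximide shortly before lysis, and were separated on sucrose gradients. The low polysome fraction held messages with 2 to 4 ribosomes and the high polysome fraction those with 4 or more. RNA was read with QuantSeq, which sequences the 3′ ends of polyadenylated transcripts, so a count does not grow with transcript length.

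DGCR8 is the RNA-binding partner of the nuclease Drosha and is needed to cut primary microRNA transcripts, so cells without it lack canonical microRNAs, small RNAs that repress messages with matching sites. In a polysome gradient, a message travels deeper the more ribosomes it carries. The number of ribosomes on a message is set by how often ribosomes start on it, how fast they move, and how long its coding sequence (CDS) is, because a short CDS has room for few ribosomes however often it is translated. A high to low polysome ratio is therefore a measure of position in the gradient and not of protein output. Every ratio below is a log2 ratio of high over low polysomes, positive where a message was more abundant in high polysomes and negative where it was more abundant in low polysomes. Each library is scaled to its own total with a TMM factor, which assumes that most genes do not differ between libraries, so ratios place genes relative to each other and carry no information on how much RNA each fraction held.

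Among the messages furthest towards low polysomes were some with very short coding sequences, and 5 are printed here because CDS length was, of the 7 message features examined, the one that varied most with the ratio. They are reference sequences of GENCODE M21 transcripts on the mouse build GRCm38, from start to stop codon, 5′ to 3′, with the start and stop codons in capitals. Tmsb4x (chrX:167207093-167209315, minus strand) codes for thymosin beta 4, an actin-binding peptide of 44 residues. Uqcr11 (chr10:80402997-80406830, minus strand) and Cox8a (chr19:7215153-7217616, minus strand) code for small respiratory chain subunits of 56 and 69 residues. Rpl38 (chr11:114668524-114672331, plus strand) codes for a protein of the large ribosomal subunit of 70 residues, and Pet100 (chr8:3621548-3625848, plus strand) for a cytochrome c oxidase assembly factor of 76 residues.
Tmsb4x: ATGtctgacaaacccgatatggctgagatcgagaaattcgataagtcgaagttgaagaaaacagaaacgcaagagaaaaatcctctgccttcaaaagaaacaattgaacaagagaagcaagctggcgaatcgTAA
Uqcr11: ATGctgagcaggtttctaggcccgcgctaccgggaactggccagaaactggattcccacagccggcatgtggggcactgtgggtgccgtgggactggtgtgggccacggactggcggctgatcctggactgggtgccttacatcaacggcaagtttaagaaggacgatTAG
Cox8a: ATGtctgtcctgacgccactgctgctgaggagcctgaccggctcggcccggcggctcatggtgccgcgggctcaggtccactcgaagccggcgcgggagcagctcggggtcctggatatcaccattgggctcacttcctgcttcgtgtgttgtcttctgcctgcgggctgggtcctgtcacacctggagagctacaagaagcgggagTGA
Rpl38: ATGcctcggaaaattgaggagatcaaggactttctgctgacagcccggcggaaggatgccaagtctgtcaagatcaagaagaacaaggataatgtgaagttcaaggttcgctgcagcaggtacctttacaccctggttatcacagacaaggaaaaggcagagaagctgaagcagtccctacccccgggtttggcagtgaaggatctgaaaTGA
Pet100: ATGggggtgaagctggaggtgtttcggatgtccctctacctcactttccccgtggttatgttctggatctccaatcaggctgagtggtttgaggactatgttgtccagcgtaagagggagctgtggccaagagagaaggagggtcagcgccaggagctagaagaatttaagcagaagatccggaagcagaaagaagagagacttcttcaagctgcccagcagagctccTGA

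The KO high polysome libraries held 3352066 to 4984833 counts and the KO low polysome libraries 3089222 to 3840124, so 3 counts correspond to 0.689 to 0.992 CPM. Spearman's rho between libraries, across genes, was 0.984 to 0.987 within the high polysome group, 0.977 to 0.985 within the low polysome group and 0.915 to 0.950 between them. All 10 ESC markers examined, among them Sox2, Nanog and Esrrb, had reads in all 6 libraries, with a summed level of 3731 to 4387 CPM in high and 3877 to 4068 CPM in low polysomes, and those of primitive endoderm summed to 3.94 to 8.61 CPM over the 6 libraries.

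Dgcr8 itself (chr16:18253948-18289246, minus strand) still gave reads, which can remain where the deleted part lies outside the 3′ end. They do not check the genotype. Dgcr8 was at 14.5, 23 and 8.73 CPM in high polysome replicates 1, 2 and 3 and at 39.0, 58.6 and 42.0 CPM in low polysome replicates 1, 2 and 3. The 2 sets of values did not overlap, and the log2 ratio was -1.67 (SE 0.19, adjusted p = 3.55e-10, limma). Ddx6, which codes for an RNA helicase of mRNA repression and decay that the study also knocked out, in samples not analysed here, lay at 199 to 223 CPM in high and 184 to 202 CPM in low polysomes, with a log2 ratio of 0.12 (SE 0.10, adjusted p = 0.333).

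Low polysome replicate 1 stood apart. In it, 8 genes lay at more than 4 times their level in every other KO library, monosome libraries included, and no other KO library had such a gene. They comprised the embryonic globins Hbb-y, Hbb-bh1 and Hba-x, the imprinted genes H19, Nnat and Dlk1, the retinoic acid binding protein gene Crabp1, and Fignl2. Hbb-y (an embryonic beta-like globin) was at 425 CPM in low polysome replicate 1, at 8.33 and 7.09 CPM in low polysome replicates 2 and 3, and at 16.5, 11.8 and 8.5 CPM in the high polysome libraries. With that 1 library left out, its log2 ratio went from -2.50 (adjusted p = 1.73e-05) to 0.48 (adjusted p = 0.272, with a range of 2.31e-08 to 0.494 over the alternatives). H19 was at 154 CPM in that library, at 4.17 and 6.31 CPM in the other low polysome libraries and at 7.94 to 11.2 CPM in high polysomes, and its log2 ratio went from -1.86 to 0.83 and under the fold threshold. Nnat went from -2.27 to -0.79 and Hbb-bh1 from -2.25 to 0.52. All 4 calls were lost, so they rest on this library. Among 7 fibroblast markers, Col3a1, Col1a1 and Col1a2 were at 8.61, 4.92 and 4.0 CPM in that library (28, 16 and 13 reads). In the other 5 libraries they were at 0 to 1.98 CPM. Thy1 was not highest there, at 2.77 CPM against 5.52 CPM in low polysome replicate 3. Postn, Dcn and Lum had 2 reads or fewer in each of the 6 libraries. The summed level of the list was 22.1 CPM there, against 2.76 to 5.29 CPM in high polysomes and a lowest low polysome sum of 2.88 CPM. The 2 genes that marked WT cells most clearly against KO cells, Chac1 and Rhox5, were at 3.75 and 7.38% of their WT low polysome level in low polysome replicate 1, within the 1.12 to 6.41% and 3.20 to 7.88% of the other low polysome libraries. What set the library apart was not tested, and in bulk samples fewer cells of a type and less RNA per cell cannot be told apart.

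**Figure D1:**
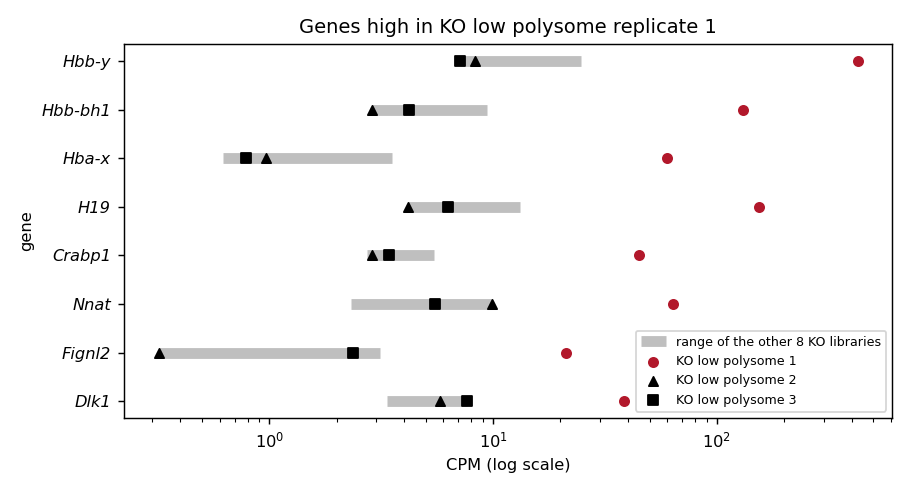
Level in TMM-scaled CPM (horizontal axis, log scale) of the 8 genes over 4 times higher in Dgcr8 KO low polysome replicate 1 (red circles) than in any other KO library, with low polysome replicates 2 (triangles) and 3 (squares) and a grey bar for the range of the other 8 KO libraries. Hbb-y is at 425 CPM in that library and at 7.09 to 24.7 CPM in the others.

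Across genes, 3323 of the 12851 tested (25.9%) were called, that is, had an adjusted p under 0.05 and a fold over 2. Of these, 1194 (9.29% of genes tested) were higher in high polysomes and 2129 (16.6%) in low polysomes. In 3264 of the 3323, the ratios of all 3 gradients lay on the side of the fit. The ratio spanned a 15.7-fold range between the 1st and the 99th percentile of genes, and 2.47-fold between the quartiles (-0.81 and 0.50, median -0.12). The balance of the sides depended on scaling, since scaling to total counts moved the median of all genes by -0.17 and gave 699 higher in high and 2738 higher in low polysomes. Without low polysome replicate 1, 3311 genes were called, of which 2909 were shared in the same direction. In 212 called genes, 1 group had 3 counts or fewer in every library, and for these the fitted ratio is no measure of size. The libraries are not stated to come from separate cultures, so p-values measure the spread between these samples, which may be technical.

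Protein-coding genes and noncoding RNAs lay in different parts of this range. The 11766 protein-coding genes had a median log2 ratio of -0.04, with 1188 called higher in high and 1645 higher in low polysomes. The 494 long noncoding RNAs had a fitted median of -1.44. Their medians in gradients 1, 2 and 3, where a prior count of 2 was used, were smaller in size, at -0.89, -0.99 and -0.95. Of the 494, 1 was called higher in high and 269 (54.5%) higher in low polysomes. The 1 exception, Cct6a, was at 893, 682 and 704 CPM in high and 335, 249.9 and 342 CPM in low polysomes (log2 ratio 1.30, SE 0.10, adjusted p = 1.95e-15), and its symbol is that of a subunit of the TRiC chaperonin, although GENCODE M21 gave it no coding transcript. Of 222 long intergenic RNAs, 123 were called higher in low and 0 higher in high polysomes, and of 119 antisense RNAs 60 and 0. The 294 processed pseudogenes, whose reads can be shared with their parent genes, were nearer to the coding genes, with a median of -0.77.

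Among RNAs known for roles in the nucleus, Malat1 (chr19:5795690-5802672, minus strand), a component of nuclear speckles, was at 308, 399.5 and 231 CPM in high and at 1393, 1706 and 1237 CPM in low polysomes. The lowest low polysome value was thus far above every high polysome value (log2 ratio -2.23, SE 0.10, adjusted p = 8.97e-22). Meg3, a maternally expressed imprinted RNA, was at 168 to 326 CPM in high and 951 to 1564 CPM in low polysomes, a log2 ratio of -2.33. In KO monosomes, Malat1 was at 6299 to 9881 CPM and Meg3 at 3147 to 5778 CPM, above both polysome fractions. These values give position in the gradient, and whether ribosomes were bound to these RNAs was not tested. Tsix, the antisense partner of the X inactivation RNA, had a ratio of -2.37, Firre -2.16 and Neat1, the scaffold of paraspeckles, -1.59. In all, 6 of 8 nuclear lncRNAs were called, all higher in low polysomes, with a list median of -1.91. The 15 snoRNA host genes, whose introns carry the guides of rRNA modification, had a median of -1.67 with 12 called higher in low polysomes, among them Snhg11 (-2.48, listed as protein-coding in GENCODE M21), Snhg14 (-2.33), Snhg1 (-1.85) and Gas5 (-1.49). Gas5 was at 98.4 to 106 CPM in high polysomes, 217 to 389 CPM in low polysomes and 661 to 874 CPM in KO monosomes.

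Among protein-coding genes, the ratio was higher the longer the CDS over most of the range. Spearman's rho of CDS length with the log2 ratio, across 11763 genes, was 0.453, 0.394 and 0.492 in gradients 1, 2 and 3, a mean of 0.446 ± 0.049 (SD, n = 3). Genes are not independent replicates, and these coefficients are descriptions. In the shortest 10th of genes, with a CDS of 78 to 525 nt, the median log2 ratio was -1.29, and 779 of 1179 (66.1%) were higher in low polysomes against 0 higher in high polysomes. The next class, of 528 to 735 nt, had a median of -0.61 with 285 called in low and 2 in high polysomes. The median passed 0 at the fifth class (1144 to 1365 nt, 0.05), reached 0.38 in the ninth (2466 to 3411 nt), where 214 genes were called in high and 40 in low polysomes, and was 0.26 in the class of the longest coding sequences, 3417 to 100404 nt. Called genes higher in high polysomes had a median CDS of 1929 nt and a shortest of 657 nt, those higher in low polysomes a median of 552 nt, and all protein-coding genes tested 1365 nt.

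Within the short range the ratio was also lower the shorter the CDS. The 44 genes with a CDS up to 200 nt had a median of -1.72 and 38 of them were higher in low polysomes. The 204 genes of 201 to 300 nt were at -1.70, the 364 genes of 303 to 399 nt at -1.42, the 442 genes of 402 to 498 nt at -1.07 and the 524 genes of 501 to 600 nt at -0.82, with 172, 283, 233 and 173 genes higher in low polysomes. No gene with a CDS of 600 nt or less was called higher in high polysomes.

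**Figure D2:**
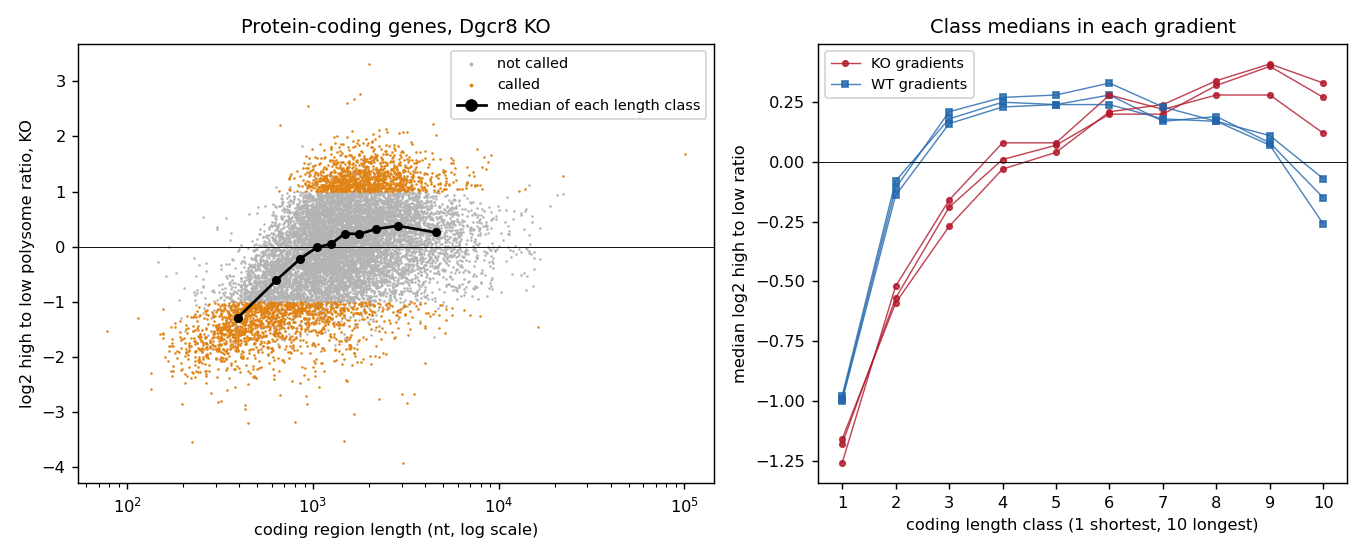
Left, log2 high to low polysome ratio in KO cells (vertical axis) against CDS length in nt (log scale), with 1 point for each protein-coding gene, called genes in orange and the median of each of 10 length classes in black. Right, the class medians in each of the 3 KO (red) and 3 WT (blue) gradients, where the KO lines run from about -1.2 in the shortest class to between 0.28 and 0.41 in the ninth.

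Other features of the message went with the ratio to a smaller extent. Spearman's rho, as a mean of the 3 gradients, was 0.059 ± 0.016 for the length of the 3′ UTR, -0.002 ± 0.005 for that of the 5′ UTR, -0.044 ± 0.026 for the GC content of the CDS and -0.103 ± 0.010 for the number of AUG codons in the 5′ UTR (SD, n = 3 each). Upstream AUG codons can capture scanning ribosomes before the main start. After the median of each gene's CDS length class was subtracted, the 6022 genes with no upstream AUG had a median of 0.13 ± 0.01 over the 3 gradients, the 2656 with 1 had -0.08 ± 0.01, the 1967 with 2 to 3 had -0.15 ± 0.02 and the 1118 with 4 or more had -0.24 ± 0.03. The share of genes called higher in high polysomes was 12.5, 8.89, 7.07 and 5.28% in these bins, and the share called higher in low polysomes was 13.1, 15.5, 14.2 and 15.1%.

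The protein-coding genes with the strongest position in low polysomes, among called genes with a mean count of 50 or more and all 3 gradients on 1 side, were Gm2381, Tmsb4x, Snhg11, Onecut2, Ciao2b, Vma21, Pet100 and Cox8a. All but Gm2381 and Onecut2 had a CDS of 492 nt or less. Tmsb4x, whose sequence is given above, was at 29.1, 23.9 and 14.2 CPM in high and 156, 130.4 and 108 CPM in low polysomes, with every low polysome value well above the high polysome values. Its log2 ratio was -2.58 (SE 0.15, adjusted p = 2.19e-19), so that low polysomes held 5.99 times the level of high polysomes. Cox8a, a nuclear-encoded subunit of cytochrome c oxidase, was at 76.4, 57.5 and 48.0 CPM in high and 351, 303 and 261 CPM in low polysomes (log2 ratio -2.35, SE 0.13, adjusted p = 7.71e-20). Pet100 was at 14.9 to 19.3 CPM in high and 75.9 to 107 CPM in low polysomes (-2.36, SE 0.16). Ciao2b, of the cytosolic iron-sulfur assembly machinery, and Vma21, an assembly factor of the vacuolar proton pump, had ratios of -2.38 and -2.37. Onecut2, a homeodomain transcription factor with a CDS of 1518 nt, was an exception to length, at 4.96 to 6.52 CPM in high and 28.0 to 37.2 CPM in low polysomes (-2.43, SE 0.27).

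At the other end stood Comp, Ptk7, Tap2, Col18a1, Tuba3a, Aplp2, Eno1 and Shmt2, with log2 ratios of 1.99 to 2.12. Several are membrane or secreted proteins. Ptk7 (chr17:46564471-46629504, minus strand), a receptor-like protein of planar cell polarity signalling, was at 374, 323 and 422 CPM in high and 74.1, 79.8 and 114 CPM in low polysomes. All high polysome values exceeded all low polysome values, by 4.20-fold on average (log2 ratio 2.07, SE 0.13, adjusted p = 3.02e-18). Aplp2, a relative of the amyloid precursor protein, was at 1149.6, 904 and 1127 CPM in high and 289, 208 and 301 CPM in low polysomes (2.00, SE 0.10, adjusted p = 4.97e-21). Col18a1, a basement membrane collagen, was at 712, 593 and 930.1 CPM in high and 197, 159.9 and 187 CPM in low polysomes (2.03, SE 0.12). Shmt2, the mitochondrial serine hydroxymethyltransferase of one-carbon metabolism, was at 206 to 314 CPM in high and 60.2 to 75.0 CPM in low polysomes (1.99, SE 0.13). Eno1 was at 28.0 to 59.8 CPM in high and 8.01 to 11 CPM in low polysomes (1.99, SE 0.22), but near-identical copies of this glycolytic gene make its count uncertain.

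**Figure D3:**
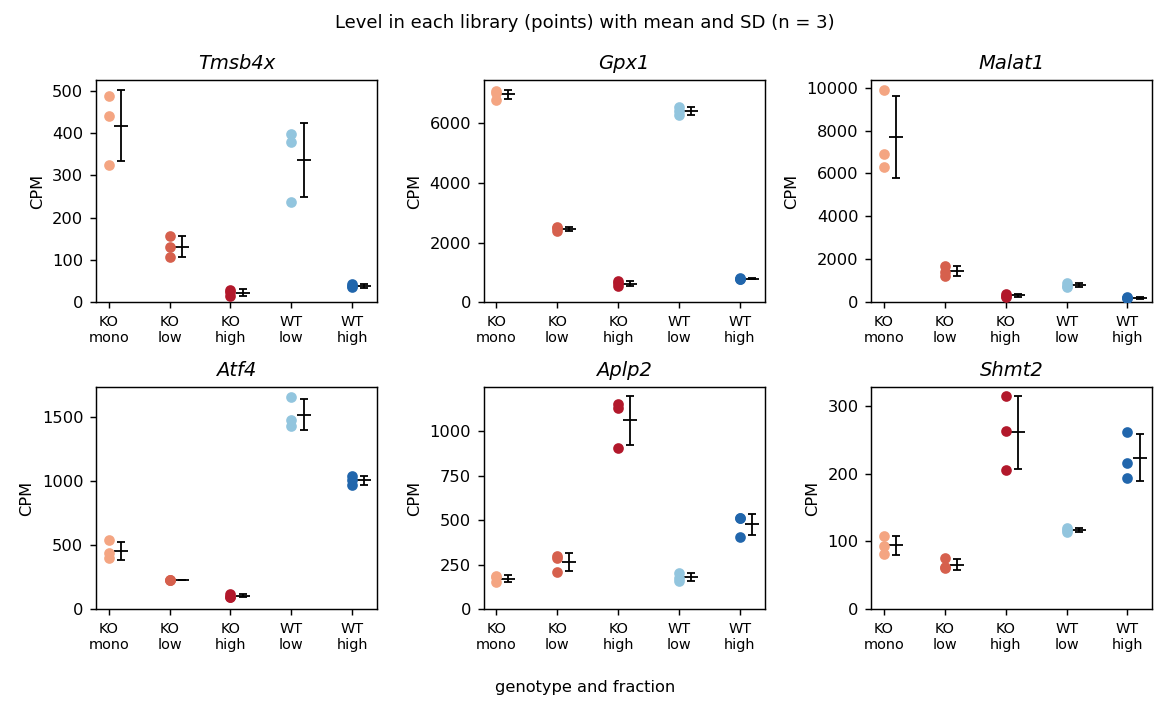
Level in TMM-scaled CPM of 6 genes in KO monosome, low and high polysome and WT low and high polysome libraries, with 1 point for each library and the mean with its SD (n = 3). In KO cells Tmsb4x, Gpx1, Malat1 and Atf4 lie higher in all 3 low polysome libraries than in any high polysome library, and Aplp2 and Shmt2 the other way round.

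**Figure D4:**
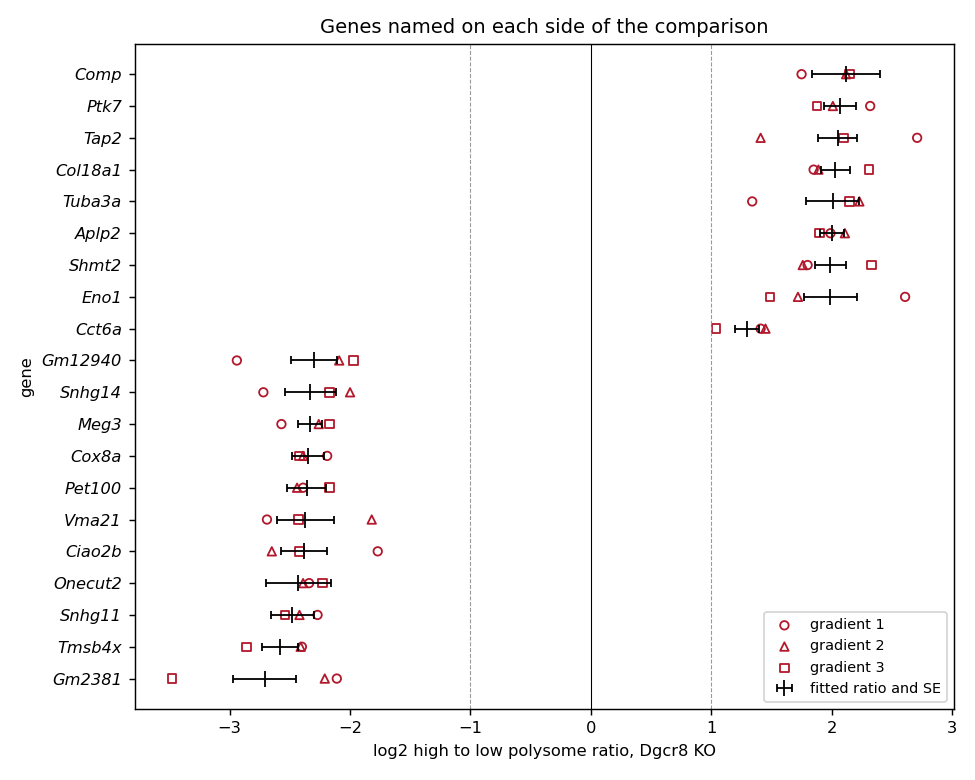
Log2 high to low polysome ratio in KO cells (horizontal axis) of the protein-coding genes and lncRNAs named at either end, with the 3 gradients as open symbols and the fitted ratio with its SE in black. All 3 gradients of every gene shown lie beyond 1 on the same side, from Gm2381 at -2.71 to Comp at 2.12.

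Gene lists were read against the 12851 genes tested, whose median was -0.12 and of which 9.29% and 16.6% were called on the high and the low polysome side. Scaling to total counts moved every list median by about the same -0.17, so calls on the high side with a ratio just over 1 depend on the scaling, and the counts that changed most with total counts are given in brackets. The protein synthesis machinery was divided. Of 76 cytosolic ribosomal protein genes, 38 were higher in low and 0 higher in high polysomes, with a median of -1.01, and the lowest members with large counts were short, such as Rpl38 (-1.96), Rps21 (-1.84) and Rpl37a (-1.72). Rps14, of the small subunit, was at 1003, 1187 and 1019 CPM in high and 2985, 3205 and 2594 CPM in low polysomes (log2 ratio -1.45, SE 0.09). The longest members lay above 0, with Rpl4 (1260 nt) at 0.46 and Rpl3 (1212 nt) at 0.27, while Rpl7a (801 nt) was at -1.15, and rho of CDS length with the ratio was 0.74 within the list. Their median stood 0.13 above that of genes of their own length classes. Ribosomal protein genes have many processed pseudogenes, and reads that fit more than 1 place were dropped, so their counts are uncertain. The 77 mitochondrial ribosomal protein genes had a median of -0.67, with 22 called in low polysomes, all with a CDS of 198 to 606 nt, and 2 in high polysomes, Mrps31 (1.21) and Mrps22 (1.09), of 1155 and 1080 nt. Mrps36 had 0 to 0.331 CPM in high and 0.788 to 2.56 CPM in low polysomes, too few reads in high polysomes for a fold.

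Among other components of translation, the tRNA-loading enzymes lay in high polysomes and the factors on both sides. Of the 20 aminoacyl-tRNA synthetases, which load tRNAs, 14 (10 with total counts) were higher in high and 0 higher in low polysomes, with a median of 1.17, 0.90 above genes of their length. Gars, for glycine, was at 278, 258 and 324 CPM in high and 104, 84.9 and 87.8 CPM in low polysomes, values that did not overlap (log2 ratio 1.64, SE 0.12, adjusted p = 2.96e-16). Mars (1.55), Hars (1.42) and Farsa (1.40) followed, and Lars, at 0.43, was the lowest. The 52 initiation and elongation factors had a median of 0.25, with 10 called in high and 5 in low polysomes (3 and 6 with total counts, and 12 and 2 without low polysome replicate 1). On the high side were the eIF3 subunits Eif3b, Eif3c, Eif3d, Eif3l and Eif3m (1.13 to 1.23), the scaffold Eif4g1 (1.06) and the helicases Eif4a1 (1.10) and Eif4a3 (1.30). On the low side were the short factors of start codon choice Eif1 (-1.58) and Eif1b (-1.27), with Eif1ad, Eif4e2 and Eif5a2. Without low polysome replicate 1, Eif1b (-0.97) and Eif1ad (-0.99) fell short of the fold threshold and Eif5a2 of the test (adjusted p = 0.16). Eif3a, the largest eIF3 subunit (4035 nt), was at -0.55 and was not called.

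The nuclear-encoded genes of the respiratory chain were divided by the size of the subunit. Of 75 nuclear-encoded subunits, 43 were higher in low polysomes, with a CDS of 159 to 570 nt, and 7 were higher in high polysomes, with a CDS of 1362 to 2184 nt. Over the 75 genes, Spearman's rho of CDS length with the ratio was 0.89. The low side included the small subunits Uqcr11 (-2.25), Uqcr10 (-2.24), Atp5k (-2.17) and Cox6b1 (-2.12). The high side held large catalytic and core subunits, Atp5a1 (1.63), Sdha (1.53), Ndufv1 (1.30), Ndufs1 (1.25), Atp5b (1.2), Uqcrc2 (1.2) and Uqcrc1 (1.18). Atp5a1, the alpha subunit of ATP synthase, was at 2040.3, 1289.8 and 1581 CPM in high and 657, 370.1 and 566 CPM in low polysomes. The lowest high polysome value was above the highest low polysome value (SE 0.09, adjusted p = 1.99e-19). The messages of the same complexes that are encoded in mitochondrial DNA, and translated by mitochondrial ribosomes, were higher in low polysomes in 6 of 7 cases (median -1.23), although their open frames of 957 to 1824 nt are not short. mt-Nd4 was at 145 to 274 CPM in high and 386 to 845 CPM in low polysomes (-1.48, SE 0.11), with the highest values of both fractions in replicate 1.

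Protein complexes of protein folding and turnover lay on the high side. The 7 subunits of the TRiC chaperonin, which folds actin and tubulin, had ratios of 0.80 to 1.53, with 4 called (Cct3, Cct7, Cct8 and Cct5) and a median of 1.23. Cct3 was at 791, 742 and 983 CPM in high and 329, 244 and 303 CPM in low polysomes (1.53, SE 0.11, adjusted p = 1.57e-16). Of 38 proteasome genes, 10 (5 with total counts) were higher in high and 0 higher in low polysomes (median 0.70, 0.76 above genes of their length). All 10 are Psmc or Psmd genes, of the regulatory particle and its assembly, led by Psmd12 (1.53) and Psmd2 (1.49), whereas the subunits of the core particle ran from -0.71 (Psmb9) to 0.93 (Psma4) with none called.

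Metabolic enzymes were on the same side. Of 15 glycolytic enzymes, 7 (5 with total counts) were higher in high and 0 higher in low polysomes (median 1.09), among them Pfkl (1.59), Ldhb (1.42), Hk1 (1.24) and Pkm (1.09). Of 22 genes of cholesterol synthesis and uptake, 7 were called, all in high polysomes. They included the synthesis enzymes Dhcr7 (1.32, SE 0.17) and Cyp51 (1.31, SE 0.10) and the transcription factor Srebf2 (1.27, SE 0.11). Insig1, which holds back the pathway, was at -0.99 and was not called. It was called in low polysomes with total counts (-1.17) and without low polysome replicate 1 (-1.25). The calls of the list in high and low polysomes were then 6 and 2, and 9 and 1.

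Among 43 genes of DNA replication, 12 were higher in high and 3 higher in low polysomes (median 0.39). The high side held 5 of 6 subunits of the Mcm2 to Mcm7 helicase, the clamp Pcna (1.25), the flap nuclease Fen1 (1.45) and the ligase Lig1 (1.15). Mcm6 was at 343, 263 and 385 CPM in high and 109, 84.6 and 112 CPM in low polysomes (1.69, SE 0.11, adjusted p = 1.54e-17). The low side held small subunits, Rpa3 (366 nt, -1.38) and the polymerase epsilon subunits Pole3 (438 nt, -1.26) and Pole4 (357 nt, -1.26). The gradients differed for Rpa3, with ratios of -0.13, -2.18 and -1.96 in gradients 1, 2 and 3. The large catalytic subunit Pole, of 6852 nt, was at -0.65.

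Replication-dependent histones, whose messages normally end in a stem-loop with no poly(A) tail, were read here only as far as they were polyadenylated. Of 32 tested, 19 (59.4%) were higher in low and 0 higher in high polysomes (median -1.51, or -0.21 against genes of their length). The 19 had a CDS of 312 to 393 nt. Among all protein-coding genes of 303 to 399 nt, 77.7% were higher in low polysomes. Core histones led, such as Hist1h4d at 11.9 to 14.9 CPM in high and 35.0 to 70.9 CPM in low polysomes (-1.89, SE 0.26). The 5 linker histones, of 639 to 672 nt, ran from -0.67 to -0.36 with none called, and from -0.06 to 0.25 against their length class. Near-identical histone copies share reads, so single members are uncertain, and Hist3h2ba had at most 3 reads in each high polysome library.

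Of 26 genes of laminins, collagens and other matrix proteins, 15 were called, all in high polysomes, with a median of 1.18. They included the type IV collagens Col4a1 (1.36) and Col4a2 (1.37), the linker proteins Nid1 (1.55) and Nid2 (1.49), and the laminin subunit Lamc1 (1.58), all of the basement membrane. Sparc, a secreted matrix protein with a CDS of only 909 nt, was at 5668, 6950.3 and 7393 CPM in high and 2759, 2206 and 3065 CPM in low polysomes (1.32, SE 0.10). The fibroblast collagen Col1a1, at -0.29, was not called, and most of its low polysome reads were in replicate 1. Without the filter on low counts the list median was 0.47 above that of all genes, against 1.30 with it. Motor proteins, with similarly long coding sequences, had a median of 0.05 (-0.12 with total counts) and 4 of 55 called on each side (1 in high and 4 in low polysomes with total counts, and 4 and 2 without low polysome replicate 1).

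Zinc finger genes named Zfp were mostly on the low side of genes of their length. Of 277 tested, 33 were higher in low and 5 higher in high polysomes (47 and 1 with total counts), the median was -0.34, and 66 of 277 exceeded the median of their length class. Zfp882 and Zfp931 had the lowest fitted ratios, but each had 3 reads or fewer in every high polysome library, so no fold is given. Zfp407 (1.45) and Zfp568 (1.11) were on the high side.

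**Figure D5:**
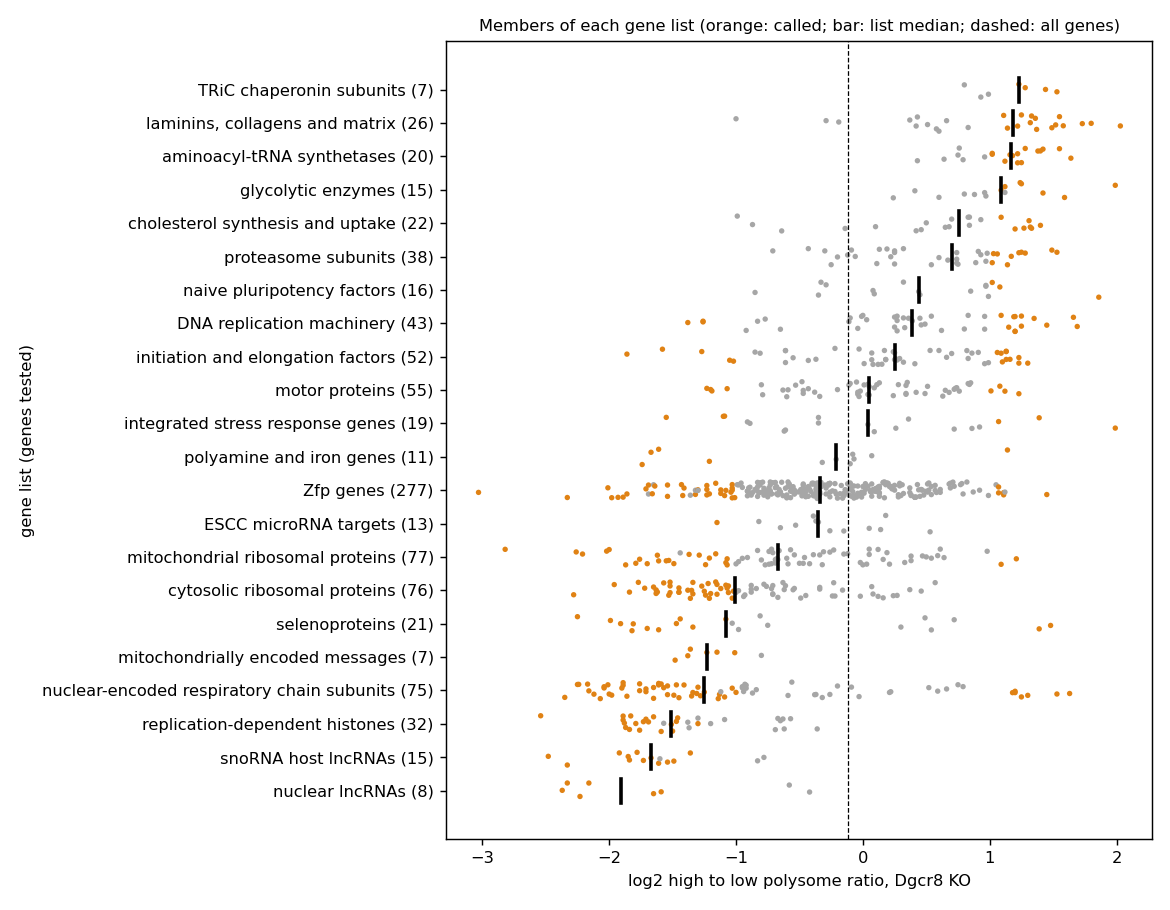
Log2 high to low polysome ratio in KO cells (horizontal axis) of the members of each gene list, with 1 point for each gene, called genes in orange, a bar for the list median and a dashed line for the median of all genes tested. List medians run from -1.91 for nuclear lncRNAs to 1.23 for TRiC subunits.

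Among genes of the integrated stress response, the transcription factors Atf4 and Ddit3 and the small protein gene Nupr1 were higher in low polysomes, and Shmt2, Asns and Slc3a2 higher in high polysomes, 3 of 19 on each side (median 0.04, or with total counts 2 and 5 called and a median of -0.13). Nupr1 was not called without low polysome replicate 1 (adjusted p = 0.0604). Atf4, whose main start is preceded by upstream open reading frames, was at 99.2, 98.8 and 119.7 CPM in high and 227, 229 and 227 CPM in low polysomes. The low polysome values lay close together and far above the high polysome values (log2 ratio -1.10, SE 0.11, adjusted p = 1.76e-11). Asns, asparagine synthetase and a target of ATF4, was at 235, 193 and 268 CPM in high and 79.6, 82.0 and 104 CPM in low polysomes (1.39, SE 0.11).

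Of 16 naive pluripotency factors, 3 were called (with total counts, 1 on each side), all in high polysomes, namely the nuclear receptor Nr0b1 (1.86), the zinc finger factor Sall4 (1.08) and Stat3 (1.02), which carries the LIF signal and was at 0.94 without low polysome replicate 1. Klf2 lay just under the fold threshold, at 1448, 1895 and 2097 CPM in high and 795, 906 and 1016 CPM in low polysomes (0.99, SE 0.10). Nanog was at 0.85 and Sox2 at 0.08, neither called, and Pou5f1 at -0.85, whose pseudogenes make its count uncertain. Of 13 known targets of the microRNA family that sets the ESC cell cycle, which KO cells lack, 1 was called. This was Akt1, a growth factor signalling kinase, at 23.2 to 34.1 CPM in high and 53.3 to 67.6 CPM in low polysomes (-1.15, SE 0.14). Cdkn1a, the cell cycle inhibitor p21, was at -0.35 and Lats2 at -0.37, and neither was called.

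Selenoproteins insert selenocysteine at UGA codons. Of 21, 11 were higher in low and 2 higher in high polysomes (median -1.08). Their median CDS was 606 nt, and against genes of their length the median was -0.32. Gpx1, a glutathione peroxidase (chr9:108338903-108340343, plus strand), was at 712, 628 and 531 CPM in high and 2483, 2514 and 2384 CPM in low polysomes, with the low polysome values close together and 3.98 times the others on average (-1.99, SE 0.09, adjusted p = 8.97e-22). Gpx4 was at -1.91 and Selenow at -1.81. Selenoi (1.48) and Txnrd3 (1.39) were the exceptions. Of 11 genes of polyamine and iron metabolism, Amd1, Oaz1, Oaz2 and Sat1 were higher in low polysomes (-1.74 to -1.21) and the transferrin receptor Tfrc in high polysomes, at 358 to 396 CPM against 158 to 179 CPM, a 2.20-fold difference. The ratio of Amd1, -1.74, is uncertain, since it had 7, 10 and 1 reads in high polysomes and gradient ratios of -1.18, -0.35 and -2.83. Oaz1 and Oaz2 need a ribosomal frameshift to be read in full. Of the genes named above on the high side, Tfrc, Pkm, Lig1, Sall4, Stat3, Mrps22, Zfp568, Slc3a2, Eif3d, Eif3l, Eif3m, Eif4g1 and Eif4a1 were no longer called when libraries were scaled to total counts.

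WT ESCs, fractionated alike, served as the reference. Across genes, rho of the KO with the WT high to low polysome ratio was 0.729, with genes not independent. The ratio of 695 genes (5.41% of those tested) was called different between KO and WT by the interaction term. In WT gradients, Spearman's rho of CDS length with the ratio was 0.134, 0.163 and 0.115, a mean of 0.137 ± 0.024, and every KO gradient was higher. The difference of the means was 0.309 (two-sided exact permutation test, p = 0.1, the smallest that 3 gradients against 3 allow). The shortest class had a median of -1.20 ± 0.05 in KO and -0.99 ± 0.01 in WT gradients, the second class -0.56 ± 0.04 and -0.11 ± 0.03, and the class of the longest coding sequences 0.24 ± 0.11 and -0.16 ± 0.10 (SD, n = 3 each), each with the same p of 0.1. Of the genes above, Gpx1 was lower in WT, at -3.02 (difference 1.03, adjusted p = 2.20e-07), whereas Malat1, at -2.02 in WT, was not called different (adjusted p = 0.376).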

How the data were processed

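The authors deposited raw read counts for each gene. According to the study's methods and the submitters' processing notes, the authors trimmed reads with cutadapt 1.14, aligned them to mm10 with STAR 2.5.3a, kept reads with a single locus and counted them by strand with featureCounts 1.5.3 over GENCODE M14 without rRNA genes. PCR copies were counted as reads because no use of molecular identifiers was described, and the floor of 3 counts covers counting error only. Reads shared by near-identical genes were dropped.

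The count table held 51467 genes and 92 spike-in entries (0.000522 to 0.00215% of reads), which were left out. Symbols and transcript features came from GENCODE M21 (GRCm38), with 51274 genes matched. Genes that passed the filter of the study (at least 3 CPM in 3 or more libraries) were fitted with limma-voom (limma 3.58.1, edgeR 4.0.16 for TMM factors, R 4.3.3) over all 18 libraries, with 6 group means and the replicate number within genotype as a block. All adjusted p-values are two-sided, from limma, with the Benjamini-Hochberg procedure applied across every gene fitted. Calls required an adjusted p below 0.05 together with an absolute log2 ratio over 1, thresholds that the study gave for another comparison. CPM are TMM-scaled, and ratios in single gradients used a prior count of 2.

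According to the study's methods, monosome, low and high polysome fractions were taken from every sample, and the labels give each library a replicate number. That fractions of the same number came from 1 sample was inferred from this and is not stated. Deviations from the group means correlated at 0.121, 0.131 and 0.054 between high and low polysome libraries of the same number and at -0.14 to 0.017 between those of different numbers. Replicates differed by more than sampling noise (chi-square per gene 5.26 to 6.85).

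Genes named were the 8 protein-coding genes and up to 3 lncRNAs with the largest absolute ratio on each side (called, mean count of 50 or more, all 3 gradients on 1 side, no group at the floor, still called without low polysome replicate 1), up to 2 called members on each side of each list and its most abundant member, 4 genes lost without low polysome replicate 1, 3 genes on each side of the difference from WT, and Dgcr8 and Ddx6. Other list members were named after their values were seen. The comparison, lists and members were chosen with earlier results of these data known. Some genes that the rule names are not reported here. The fit was tested on simulated counts with known changes. Alternatives were other scalings, filters and tools (edgeR, DESeq2 1.42.0), no block, fewer libraries and no fold threshold.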

Additional observations from a re-analysis of the deposited data

Results flagged for a closer look

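The high to low polysome ratio of 695 genes differed between KO and WT ESCs by the interaction term, and 16 genes named by rule among them are given here. Differences are log2 ratios, KO minus WT, and no explanation of them was tested.

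Npr1, a receptor for natriuretic peptides, had a difference of 2.14, the largest among these genes that rested neither on 1 library nor on a group at the floor (3 counts or fewer in each library; adjusted p = 7.01e-08), with a KO ratio of 0.62 and a WT ratio of -1.52. Its KO high polysome libraries were at 30.4 to 41.3 CPM and its KO low polysome libraries at 19.9 to 26.3 CPM. In WT, the order of the fractions was the opposite, with 11.2 to 17.2 CPM in high and 28.9 to 49.4 CPM in low polysomes. Tnks1bp1, a tankyrase-binding protein gene, differed by 2.10 and Ankrd52, a subunit of a protein phosphatase complex, by 2.09, both with a positive KO and a negative WT ratio. Levels of Ankrd52 in WT were low, at 1.95 to 2.55 CPM in high and 2.79 to 7.83 CPM in low polysomes (WT ratio -1.06, adjusted p = 0.0482, limma). Among the other genes with a higher ratio in KO cells, Ptk7 differed by 1.13, Zfp407 by 1.09, Shmt2 by 1.06, Txnrd3 by 1.05 and Gpx1 by 1.03. On the lower side, Hist1h1c, a linker histone gene, differed by -1.26, with a KO ratio of -0.67 and a WT ratio of 0.59. Rps13 differed by -1.12 and Rpa3 by -1.02. The calls of Rpa3, Zfp407 and Txnrd3 held in 8, 6 and 7 of 14 alternatives. Zfp882 had a fitted difference of -3.36, which is no measure of size because its KO high polysome libraries had 3 counts or fewer.

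The remaining 4 rest on KO low polysome replicate 1. Hbb-y differed by -3.07, Nnat by -2.92, Hbb-bh1 by -2.70 and H19 by -1.58. Without that library, the first 3 differences were -0.09, -1.44 and 0.07 and were not called, whereas that of H19 was 1.10 and was called in the opposite direction (adjusted p = 0.0368).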

How the results depend on the processing

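With a threshold on the adjusted p alone, 7275 genes passed, 3344 higher in high and 3931 higher in low polysomes, and 2556 differed between KO and WT (1099 higher and 1457 lower in KO). Scaling to total counts gave 699 genes higher in high and 2738 higher in low polysomes. The KO to WT difference was then higher in 125 and lower in 859 genes, in place of 307 and 388. Without a filter on low counts, the mean rho of CDS length was 0.36. Without the replicate block, 3319 genes were called (1212 and 2107), 3235 of them shared with the paired fit, and 666 differed from WT, so the pairing by number changed these counts little, but it decided the calls of Hbb-y, Hbb-bh1 and H19. DESeq2 called 3201 genes, edgeR 3356 and the 6 libraries alone 2881. Leaving out replicates in turn gave 3008 to 3311 genes called, 1149 to 1331 of them higher in high polysomes, 569 to 819 different from WT, and a rho of 0.423 to 0.473. The higher side of the KO to WT difference ranged from 212 (without KO replicate 3) to 456 (without KO replicate 2). Over these same fits, the ratio ran from -3.35 to 0.48 for Hbb-y, from -2.99 to 0.52 for Hbb-bh1 and from -2.74 to 0.87 for H19, positive in each case without low polysome replicate 1. Of the values of named genes under alternatives, 41 in 23 genes lost their call, 9 in 2 genes (Klf2 and Psmd3) gained one, 1267 in 89 genes kept a call, 171 in 12 genes had none under either, and the 6 others are the changes of sign in these 3 genes without low polysome replicate 1 or KO replicate 1. Leaving out WT libraries gives no other value of rho, and the 6 libraries alone give no difference from WT.

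Depth limits the lowest genes: 212 called genes had a group at 3 counts or fewer in each library. With 3 gradients per genotype, an exact test cannot pass 0.1, and a ratio of 2 fractions does not separate ribosome load from CDS length.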

Other observations

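Some messages lay on the side opposite to most genes of their length. They were picked after their values were seen and were not tested as a group. Among the 3 classes of longest coding sequences, 105 genes were called higher in low polysomes, 38 of them with a mean count of 50 or more and all 3 gradients on 1 side. Mapk8ip3, a scaffold of JNK signalling with a CDS of 4014 nt, was at 9.26, 13 and 11 CPM in high and at 44.3, 51.3 and 49.4 CPM in low polysomes (log2 ratio -2.10, SE 0.21, adjusted p = 7.34e-12, limma). Its ratio in WT cells was -2.25. Ttll6, a tubulin glutamylase of 2469 nt, was at 22.5 to 31.7 CPM in high and 101 to 108 CPM in low polysomes (-1.94), and -2.21 in WT. Paxbp1 (-1.63), Nrxn2 (-1.56), Pnisr (-1.55) and Hjurp, the chaperone of the centromeric histone (-1.40), were on the same side. Dgcr8 was too, at -1.67 in KO and -1.17 in WT, but its reference CDS length may not hold for the message of the knocked out gene.

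Among the 3 classes of shortest coding sequences, 36 genes were called higher in high polysomes, 21 of them by the same rule, and 2 of the 36 lay in the 2 shortest classes. Gstm1, a glutathione transferase of 657 nt in the second shortest class, was at 116, 127 and 161 CPM in high and 68.8, 59.9 and 69.9 CPM in low polysomes (1.02, SE 0.13, adjusted p = 2.02e-09), and was not called when libraries were scaled to total counts. Ubb, a polyubiquitin gene, had a ratio of 1.64 and Slc25a5, the mitochondrial ADP/ATP carrier, of 1.52. Near-identical copies make the counts of both uncertain. Apoe, the secreted lipid carrier, was at 3420 to 4969 CPM in high and 1369 to 1896 CPM in low polysomes (1.42), and Spp1, a secreted phosphoprotein, was at 1.21. The signalling adaptor Ywhag, of 744 nt, had a ratio of 1.25.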
